A study of Canis lupus familiaris with 18 samples.

Results

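NF-kappaB is a family of 5 transcription factor subunits held in check by inhibitor proteins, and 10 of its genes were followed in the fat of lean and obese dogs. The subunit genes are NFKB1, NFKB2, REL, RELA and RELB, and the inhibitor and feedback genes are NFKBIA, NFKBIB, NFKBIE, NFKBIZ and TNFAIP3. They were chosen by name, as all probe sets to which the array annotation gives 1 of these symbols and no other. That gives 14 probe sets (groups of short probes for 1 transcript) for 10 of the 15115 genes with such a probe set. NFKB1 has 3 probe sets, NFKB2 and NFKBIB have 2 each, and the others have 1.

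The study measured 18 Affymetrix canine arrays from 9 intact female beagles aged 4 years. The dogs were assigned at random to ad libitum feeding or to a ration that held starting body weight, and all ate the same commercial diet, Purina Pro Plan Performance Formula. The 4 controls (dogs 1, 3, 4 and 9) are labelled lean and the 5 ad libitum dogs (dogs 2, 5, 6, 7 and 8) obese. At 24 weeks, after a fasted night, subcutaneous and gonadal fat was taken from each dog, so that each of the 4 depot and feeding groups holds 1 array per dog. No group carries a genetic change. The labels describe the subcutaneous arrays alone as deposited earlier, with values processed in another way. If they were run apart from the gonadal arrays, depot and array run cannot be told apart. The number of arrays limits the precision of every value.

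In resting cells IkappaB proteins such as those encoded by NFKBIA and NFKBIB keep dimers of the subunits in the cytoplasm. Signals from TNF, interleukin 1 or Toll-like receptors activate the IkappaB kinase complex, the inhibitors are broken down, and the dimers enter the nucleus. The NFKB1 and NFKB2 products are made as precursors that are cut to DNA-binding forms, while RELA, REL and RELB carry transactivation domains. The dimers switch on cytokine, adhesion and survival genes and also NFKBIA and TNFAIP3, which shut the signal down again. In adipose tissue the pathway is known for its activity in adipocytes, macrophages and endothelium in obesity.

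All values are log2 expression values, and log2 4 served as the floor below which a probe set was read as low. All 10 adipocyte markers examined (ADIPOQ, LEP, PLIN1 and others) lay at or above the floor in at least 1 array of each group. Marker lists of other cells were summarised per array as a score, the mean log2 difference of the markers from their median over the 18 arrays. In 4 arrays the skeletal muscle or ciliated-cell score was above 2. The muscle score was 6.37 in subcutaneous fat of control dog 3, 5.98 in that of control dog 4, where the ciliated-cell score was 3.40, and 6.55 in gonadal fat of ad libitum dog 2. The ciliated-cell score was 4.65 in gonadal fat of ad libitum dog 6. The adipocyte score ran from -1.89 to -0.66 in the subcutaneous controls and from -1.40 to 0.67 in the subcutaneous ad libitum arrays. The fibroblast score ran from 0.63 to 1.36 and from -0.24 to 0.95 in the same groups, and all 7 markers on the B cell list that the array carries lay below the floor in every array. In whole fat, fewer cells of a type and less RNA per cell cannot be told apart.

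Of the 10 genes 8 reached the floor in at least 4 arrays and were tested, with 11 of the 14 probe sets. NFKBIE, an IkappaB protein, lay between 2.49 and 3.07 in all 18 arrays. TNFAIP3, the ubiquitin-editing enzyme A20, lay between 1.98 and 2.04 in all arrays except subcutaneous fat of ad libitum dog 6, at 2.70. Both were below the floor everywhere, so neither was tested and no direction is given for them. The third NFKB1 probe set stayed between 1.88 and 1.91 in all arrays, against 7.73 to 9.47 for the probe set of that gene with the highest mean. A tested gene is represented below by its probe set of highest mean.

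**Figure D1:**
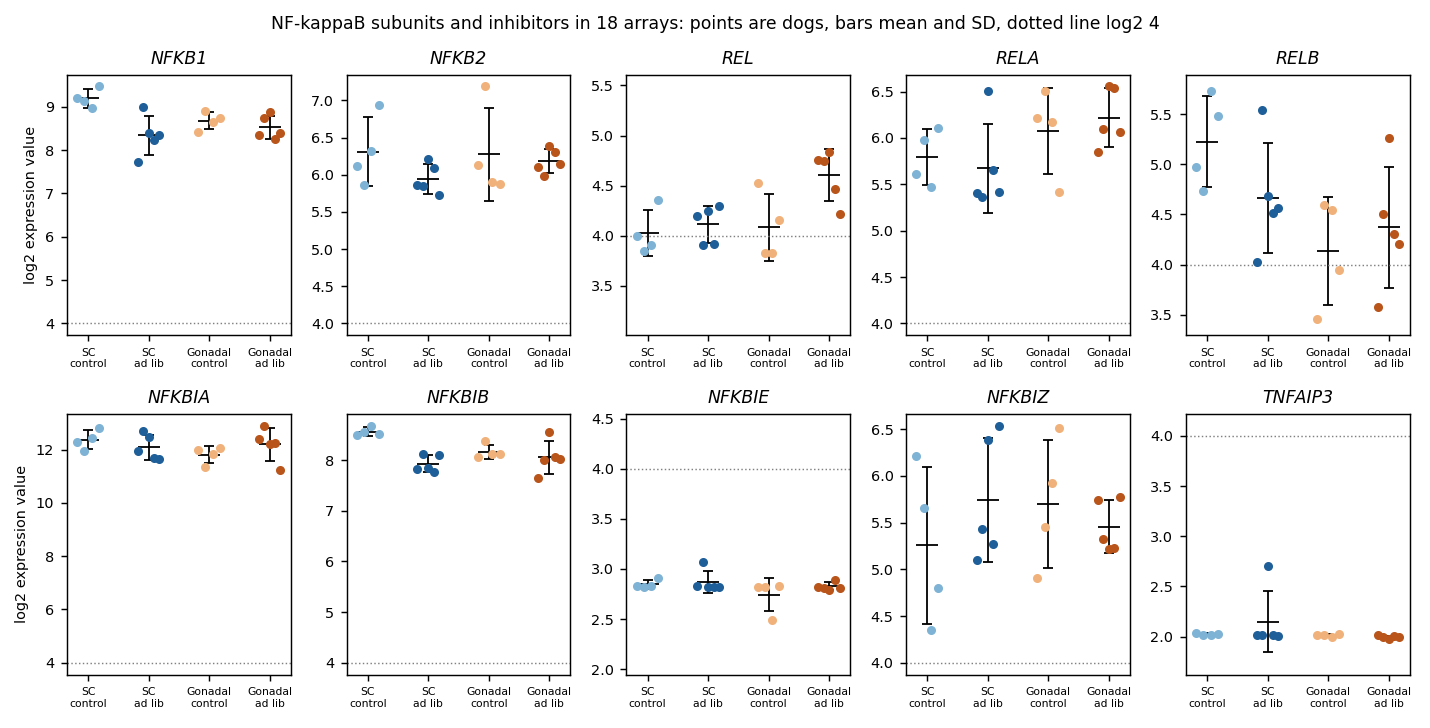
Log2 expression (vertical axis, a separate scale in each panel) of the 10 genes in the 4 depot and feeding groups, SC standing for subcutaneous. Each point is 1 dog, the bars are the mean and SD (4 control and 5 ad libitum dogs), and the dotted line is log2 4. The 4 subcutaneous control values of NFKBIB lie above the 5 subcutaneous ad libitum values, while NFKBIE and TNFAIP3 lie below the dotted line in every array.

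In subcutaneous fat 2 of the 8 tested genes, NFKB1 and NFKBIB, were lower in the ad libitum dogs. They passed limma's moderated test at an adjusted p under 0.05, and no tested member was higher. Over all 8650 genes tested, 0.347% passed in the lower direction and 2.31% in either. At an unadjusted p under 0.05 the share was 2 of 8 among the members and 23.7% among all genes. The median difference was -0.32 over the 8 members and 0.000474 over all genes. As the alternatives below show, both calls depend on which arrays and which filter enter the fit.

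NFKB1 encodes the p105 precursor of the p50 subunit. In subcutaneous fat its log2 values in control dogs 1, 3, 4 and 9 were 9.20, 9.13, 8.96 and 9.47, a mean of 9.19 ± 0.21 (SD, n = 4). In ad libitum dogs 2, 5, 6, 7 and 8 they were 7.73, 9.00, 8.40, 8.24 and 8.34, a mean of 8.34 ± 0.45 (SD, n = 5). Dog 5 alone reached into the range of the controls, and the other 4 ad libitum dogs lay below it. The difference between the means, -0.85 ± 0.21 (log2, ± SE, adjusted p = 0.0468 by limma), is 1.80-fold. The second NFKB1 probe set, at 7.67 to 8.00 in the controls and 6.60 to 7.47 in the ad libitum dogs, had groups that did not overlap. Its difference of -0.77 ± 0.20 just missed the threshold (adjusted p = 0.0530).

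NFKBIB encodes IkappaB beta. Its subcutaneous values were 8.50, 8.56, 8.68 and 8.52 in control dogs 1, 3, 4 and 9, a mean of 8.57 ± 0.08 (SD, n = 4). They were 7.82, 8.13, 7.84, 7.77 and 8.09 in ad libitum dogs 2, 5, 6, 7 and 8, a mean of 7.93 ± 0.17 (SD, n = 5). Every control lay above every ad libitum dog, a separation in the lower direction that 1 of the 8 members and 4.34% of all genes showed. The mean of NFKBIB fell by 0.64 ± 0.15 log2 units (adjusted p = 0.0440 by limma), or 1.55-fold. Its second probe set went the other way, with values of 6.08 to 6.16 in the controls and 6.13 to 6.58 in the ad libitum dogs and a difference of 0.13 ± 0.14 (adjusted p = 0.581). The probe sets of NFKBIB therefore disagree, and their mean differed by -0.25 ± 0.13 (adjusted p = 0.261).

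Both calls rested on the arrays in the fit. Leaving out 1 dog at a time, NFKB1 kept a difference of -1.02 to -0.70 and passed only without dog 5, with adjusted p from 0.00686 to 0.132. NFKBIB kept -0.69 to -0.59 and passed only without dog 5 or without dog 6, with adjusted p from 0.0204 to 0.139. Without the 4 arrays of high muscle or ciliated-cell score, which leaves dogs 1 and 9 as subcutaneous controls, NFKB1 stood at -0.99 (adjusted p = 0.161) and NFKBIB at -0.58 (adjusted p = 0.146). The whole table moved as well, from 506 of 21484 probe sets that passed to 2703 without dog 5 and 570 without dog 6. Without any other 1 dog 3 to 98 passed, and without those 4 arrays 5 passed. The subcutaneous array of dog 5 had the lowest adipocyte score of the ad libitum arrays in that depot, -1.40, and the highest macrophage score of all 18, 1.90. In a fit without that array, added after seeing the data, NFKB1 differed by -1.02 (adjusted p = 0.00506). The whole table rose in that fit too, to 2956 of 21484 probe sets that passed.

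RNA length may also have differed between the subcutaneous groups. The actin 3' minus 5' control signal grows as RNA is shortened. It averaged 4.75 ± 1.02 (SD, n = 4) in the subcutaneous controls and 3.49 ± 0.77 (SD, n = 5) in the ad libitum arrays (exact two-sided permutation p = 0.0873 over 126 regroupings). The ranges overlapped, 3.42 to 5.72 against 2.61 to 4.40. In gonadal fat the controls averaged 2.91 and the ad libitum arrays 3.31 (exact two-sided permutation p = 0.532). With that signal as a covariate NFKB1 differed by -0.58 (adjusted p = 0.285) and NFKBIB by -0.50 (adjusted p = 0.252). In that fit 1 of 21484 probe sets passed for feeding in subcutaneous fat. The part of muscle transcripts, cell makeup and RNA length in these differences was not tested further.

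**Figure D2:**
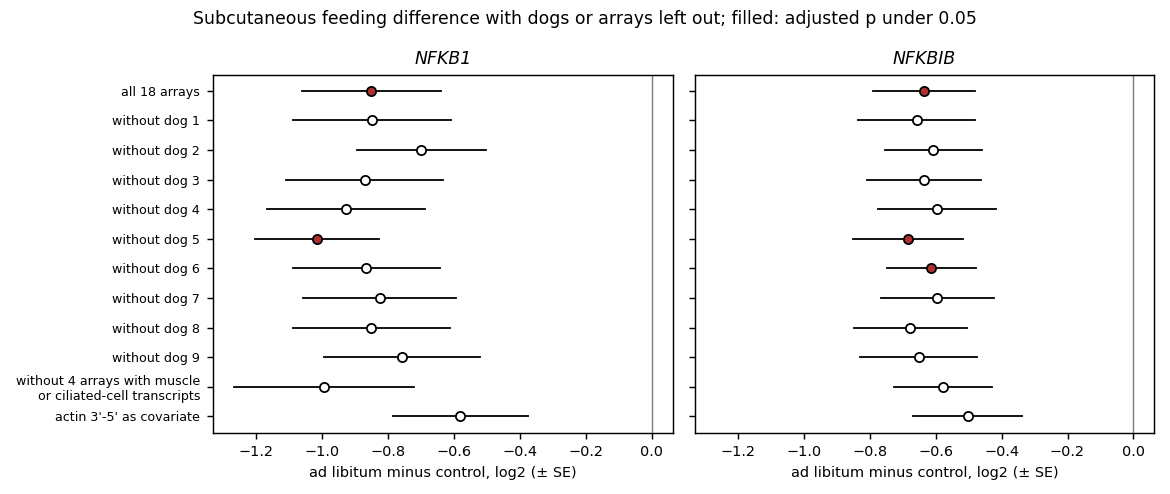
Ad libitum minus control difference in subcutaneous fat (horizontal axis, log2, with bars of 1 SE) for NFKB1 and NFKBIB in the fit to all 18 arrays and with dogs or arrays left out or the actin signal added. Filled points passed at an adjusted p under 0.05: both genes lie below 0 in every row, NFKB1 passed in all 18 arrays and without dog 5, and NFKBIB in those and without dog 6.

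The other 6 tested members did not pass in subcutaneous fat. RELB, the partner of p52 in the noncanonical pathway, had values of 4.97, 4.73, 5.73 and 5.48 in control dogs 1, 3, 4 and 9. In ad libitum dogs 2, 5, 6, 7 and 8 it had 4.02, 5.54, 4.68, 4.52 and 4.56. Dog 5 again stood among the controls, and the difference was -0.56 ± 0.35 (adjusted p = 0.329). NFKB2, which encodes the p100 precursor of p52, differed by -0.36 ± 0.25 (adjusted p = 0.386), and its second probe set by -0.72 ± 0.31 (adjusted p = 0.174). RELA, the p65 subunit, differed by -0.12 ± 0.26 (adjusted p = 0.810). Its value in ad libitum dog 6, 6.50, lay above all 4 controls, whereas the other 4 ad libitum dogs were at 5.37 to 5.66. REL, the c-Rel subunit best known from lymphocytes, lay close to the floor at 3.85 to 4.36 in the controls and 3.91 to 4.30 in the ad libitum dogs (0.09 ± 0.18, adjusted p = 0.801).

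NFKBIA, which encodes IkappaB alpha, was at 12.28, 11.97, 12.44 and 12.80 in the subcutaneous controls in the same dog order. The ad libitum dogs were at 11.95, 12.70, 12.47, 11.68 and 11.65, so the groups overlapped. Its difference of -0.28 ± 0.30 (adjusted p = 0.592) has a 95% interval of -0.92 to 0.36, which leaves room for a change in either direction. NFKBIZ, a nuclear IkappaB family protein that acts on some NF-kappaB targets, had the widest spread of the 8 members in the subcutaneous controls, at 6.22, 5.66, 4.35 and 4.80. The 2 lowest, dogs 4 and 9, were below all ad libitum dogs, which were at 5.10 to 6.54, and the difference was 0.49 ± 0.40 (adjusted p = 0.469).

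In gonadal fat none of the 8 members passed with feeding, and neither did any gene of the whole table (0% of 8650, with 2.4% at an unadjusted p under 0.05). All 8 members had an adjusted p = 0.99994 by limma. REL was the 1 member with an unadjusted p under 0.05. Its gonadal values were 4.53, 3.83, 3.83 and 4.16 in control dogs 1, 3, 4 and 9, and 4.76, 4.75, 4.84, 4.46 and 4.22 in ad libitum dogs 2, 5, 6, 7 and 8. In control dogs 3 and 4 it was below the floor, and control dog 1 lay inside the ad libitum range. The difference was 0.52 ± 0.18, with a 95% interval of 0.14 to 0.90 before adjustment.

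The genes that passed in subcutaneous fat were close between feeding groups in gonadal fat. NFKB1 was at 8.42, 8.91, 8.64 and 8.75 in the gonadal controls and at 8.35, 8.75, 8.87, 8.26 and 8.39 in the ad libitum dogs. These ranges overlap almost wholly, and the difference was -0.16 ± 0.21, with a 95% interval of -0.60 to 0.29. NFKBIB was at 8.06, 8.37, 8.12 and 8.13 in the controls and at 7.65, 8.00, 8.55, 8.07 and 8.02 in the ad libitum dogs, a difference of -0.11 ± 0.15 with an interval of -0.44 to 0.21. NFKBIA differed by 0.38 ± 0.30, RELB by 0.23 ± 0.35, RELA by 0.14 ± 0.26, NFKB2 by -0.09 ± 0.25 and NFKBIZ by -0.24 ± 0.40.

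**Figure D3:**
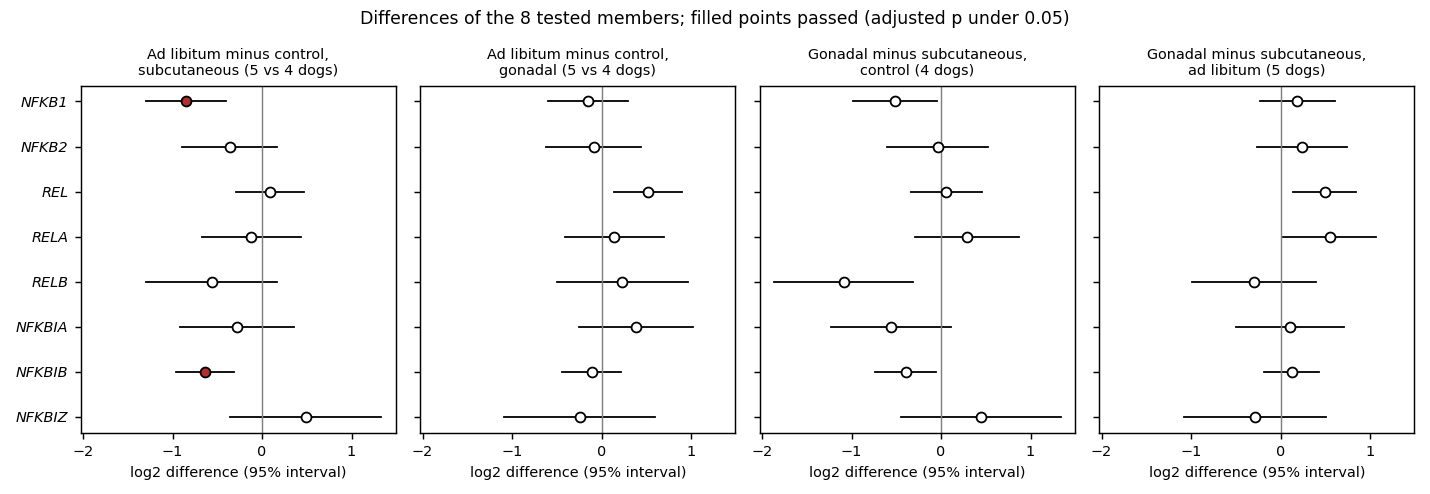
Log2 differences with 95% intervals (horizontal axis) of the 8 tested members for feeding in each depot (5 ad libitum against 4 control dogs) and for depot in each feeding group (4 and 5 dogs). Filled points passed at an adjusted p under 0.05 and are NFKB1 (-0.85) and NFKBIB (-0.64) for feeding in subcutaneous fat.

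Whether the feeding response itself differed between depots was tested as the difference of the differences, gonadal minus subcutaneous. Of the 8 members 0 passed, as did 0% of all genes. At an unadjusted p under 0.05 there were 2 members, NFKB1 at 0.70 ± 0.30 and NFKBIB at 0.52 ± 0.22 (both adjusted p = 0.748 by limma), against 6.32% of all genes. Of the 8 members 1 had a value below 0, NFKBIZ at -0.73 ± 0.57 (adjusted p = 0.767), against 51.2% of all genes. The responses of NFKB1 and NFKBIB, which passed in subcutaneous fat alone, were thus not shown to differ between depots.

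Each dog gave both fats, and differences within dogs are given below, but the SE and adjusted p of a depot comparison come from the fit of group means without the dog unless a block is named. In the controls 0 of the 8 members passed, against 2.95% of all genes, and in the ad libitum dogs 0 of 8, against 7.46%. At an unadjusted p under 0.05 there were 3 of 8 (NFKB1, RELB and NFKBIB) in the controls, against 19.6%, and 2 of 8 (REL and RELA) in the ad libitum dogs, against 24.5%. These comparisons use the same arrays as the feeding comparisons, so their values are given side by side and not as separate support. In the controls NFKB1, RELB, NFKBIA and NFKBIB were lower in gonadal fat of all 4 dogs, which 4 of the 8 members and 14.9% of all genes showed. Gonadal and subcutaneous values did not overlap, with gonadal lower, for NFKB1, RELB and NFKBIB, or 3 of 8 members, against 8.14% of all genes.

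RELB had the largest depot difference of the members in the controls. Its gonadal values were 3.46, 4.60, 4.55 and 3.95 in control dogs 1, 3, 4 and 9, and its gonadal minus subcutaneous differences in these dogs were -1.51, -0.13, -1.18 and -1.53. Dog 3 showed almost none of it. The mean difference was -1.09 ± 0.37 (adjusted p = 0.110). In dogs 1 and 9 the gonadal value was below the floor, so the size there is uncertain. In ad libitum dogs 2, 5, 6, 7 and 8 the within-dog differences of RELB were -0.44, -1.04, 0.58, -0.21 and -0.35, with dog 6 opposite to the others and a mean of -0.29 ± 0.33 (adjusted p = 0.635).

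NFKB1 differed between depots by -0.77, -0.22, -0.33 and -0.72 in control dogs 1, 3, 4 and 9, a mean of -0.51 ± 0.22 (adjusted p = 0.207). In the ad libitum dogs the differences were 0.62, -0.25, 0.47, 0.02 and 0.05, a mean of 0.18 ± 0.20 (adjusted p = 0.617), so only dog 5 went with the controls. NFKBIA differed by -0.28, -0.63, -0.60 and -0.72 in the controls (-0.56 ± 0.32, adjusted p = 0.345) and by 0.44, 0.20, -0.26, 0.57 and -0.42 in the ad libitum dogs (0.11 ± 0.28, adjusted p = 0.864). The ad libitum dogs had no common direction. NFKBIB differed by -0.40 ± 0.16 in the controls (adjusted p = 0.184) and by 0.13 ± 0.15 in the ad libitum dogs (adjusted p = 0.645). The second NFKB2 probe set differed by -0.98 ± 0.33 in the controls (adjusted p = 0.105), whereas the first differed by -0.04 ± 0.27 (adjusted p = 0.956), so these probe sets disagree.

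In the ad libitum dogs REL and RELA stood out among the members toward gonadal fat. REL differed by 0.57, 0.84, 0.59, 0.55 and -0.08 in dogs 2, 5, 6, 7 and 8, higher in gonadal fat of 4 of 5 dogs, with a mean of 0.49 ± 0.17 (adjusted p = 0.0855). In subcutaneous fat of dogs 5 and 7 REL was below the floor, at 3.91 and 3.92, so the size there is uncertain. With the dog as a random block, which uses the pairing of depots, REL was higher in gonadal fat (0.49 ± 0.15, adjusted p = 0.0479), and with the dog as a fixed block it did not pass. REL passed in 1 of 21 alternative fits, the random block, in which 2495 of 21484 probe sets passed. RELA was at 5.85, 6.09, 6.56, 6.54 and 6.06 in gonadal fat of these dogs. It was higher there in 5 of 5 dogs, by 0.44, 0.72, 0.05, 0.89 and 0.65, a mean of 0.55 ± 0.25 (adjusted p = 0.187). NFKB2 was also higher in 5 of 5 dogs, by 0.13 to 0.42 (0.24 ± 0.24, adjusted p = 0.589). These 2 of 8 members compare with 12.7% of all genes that were higher in gonadal fat of every ad libitum dog. NFKBIZ differed by -0.29 ± 0.38 (adjusted p = 0.695) in these dogs and by 0.44 ± 0.42 (adjusted p = 0.591) in the controls, where the differences ran from -1.31 in dog 1 to 1.72 in dog 9.

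**Figure D4:**
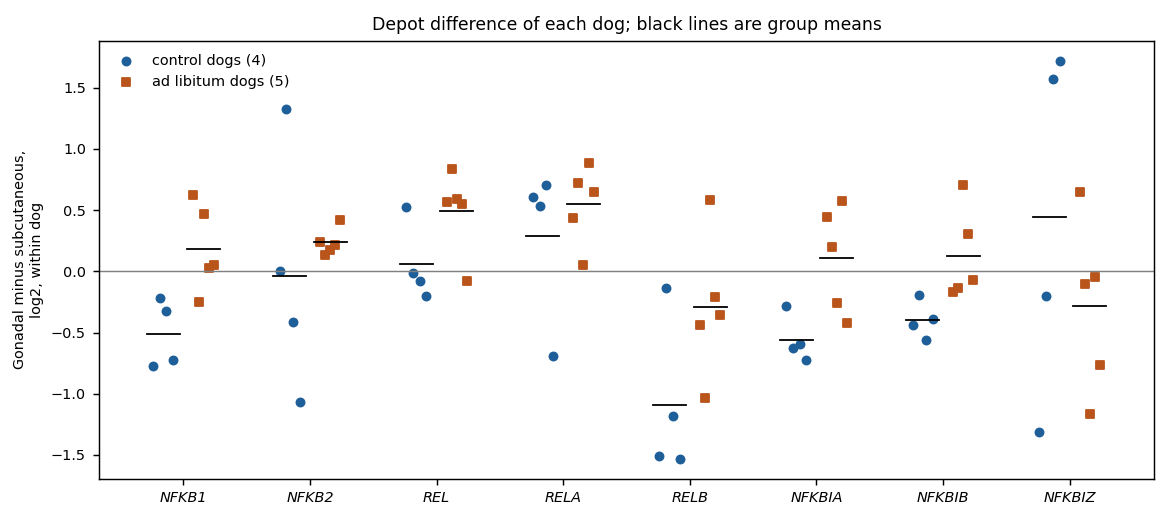
Gonadal minus subcutaneous log2 difference within each dog (vertical axis) for the 8 tested members, with circles for the 4 control dogs, squares for the 5 ad libitum dogs and black lines for the means. The control circles of NFKB1, RELB, NFKBIA and NFKBIB all lie below 0, and the ad libitum squares of RELA and NFKB2 all lie above it.

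In the order of group means, NFKB1, NFKB2, RELB, NFKBIA and NFKBIB were highest in subcutaneous controls, REL and RELA in gonadal ad libitum fat, and NFKBIZ in subcutaneous ad libitum fat. Only the gap between subcutaneous control and subcutaneous ad libitum fat passed a test, for NFKB1 and NFKBIB. No other pair of groups compared passed without a block for the dog, so the rest of each order is not separated from the spread between dogs.

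Of 111 other pathway genes, listed by role, 99 were on the array and 71 were tested. Among the ligands TNF and IL1A were below the floor in all 18 arrays, IL1B reached it in 1, and only LTB, IL18 and IL33 were tested (3 of 12 listed). LTB, a ligand of the noncanonical pathway, differed by -0.42 ± 0.22 with feeding in subcutaneous fat (adjusted p = 0.241) and by more in gonadal fat (-0.55 ± 0.22, adjusted p = 0.99994). IL33, an alarmin, differed by -1.15 ± 0.63 in subcutaneous fat with feeding (adjusted p = 0.273) and by -0.26 ± 0.63 in gonadal fat (adjusted p = 0.99994). No ligand passed any comparison. IL6 was at or above the floor in 2 arrays and CXCL8 in 1, so these targets were not tested.

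With ad libitum feeding 1 of the 71 rose in subcutaneous fat and 0 fell, against 1.97% and 0.347% of all genes, and 0 passed in gonadal fat. The gene was TNFAIP8, a TNF-induced gene linked to cell survival. Its values were 4.96, 5.70, 6.21 and 6.08 in control dogs 1, 3, 4 and 9 and 7.38, 6.05, 6.96, 7.03 and 7.26 in ad libitum dogs 2, 5, 6, 7 and 8. Dog 5 again lay within the controls, and the mean rose by 1.20 ± 0.29 (adjusted p = 0.0437 by limma). TNFAIP8 passed in 7 of 21 alternative fits, and not without the 4 arrays of high muscle or ciliated-cell score (1.42, adjusted p = 0.140) or with the actin signal (1.11, adjusted p = 0.218). Without dog 5 the count of pathway genes that passed was 6 of 71. The number of all probe sets that passed for feeding in subcutaneous fat rose as well, from 506 to 2703 of 21484. The count of 6 is therefore no sign of a response particular to the pathway.

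None of the 10 tested receptors, 17 adaptors, 5 kinases and 12 other inhibitors passed with feeding in subcutaneous fat. By role, the 2 genes with the smallest p included TNFRSF12A, the TWEAK receptor (-0.63 ± 0.19, adjusted p = 0.0828), TRAF5, a receptor adaptor (1.05 ± 0.34, adjusted p = 0.0926), and LY96, the MD-2 partner of TLR4 (1.00 ± 0.35, adjusted p = 0.117). BCL2L1, which encodes the survival protein BCL-XL, differed by -0.58 ± 0.19 (adjusted p = 0.0926). ZFAND5, an A20-type zinc finger protein, differed by -0.51 ± 0.17 (adjusted p = 0.103) and OTULIN, a linear-ubiquitin deubiquitinase, by 0.54 ± 0.20 (adjusted p = 0.127). MAP3K8, the kinase TPL2, differed by -0.47 ± 0.22 (adjusted p = 0.205), IKBKB, the catalytic IkappaB kinase, by -0.32 ± 0.24 (adjusted p = 0.427) and BCL10 by -0.39 ± 0.19 (adjusted p = 0.225).

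In gonadal fat all 71 pathway genes had an adjusted p = 0.99994 by limma with feeding. The smallest unadjusted p was that of LTB, given above, and the 2 genes with the smallest p in each other role follow. TLR3, the receptor for double-stranded RNA, differed by 0.99 ± 0.41 and CD14 by -0.40 ± 0.42. IKBKG, which encodes NEMO, differed by -0.24 ± 0.13 and IKBKE by 0.20 ± 0.20. BCL10 differed by -0.27 ± 0.19, IRAK3 by 0.25 ± 0.24, BCL3 by 0.25 ± 0.44 and COMMD1 by -0.10 ± 0.18. Of the targets PTGS2, or COX-2, differed by -1.06 ± 0.69 and TNFAIP6 by -1.06 ± 0.74.

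Between depots some target genes were far lower in gonadal fat in both feeding groups. In the controls 3 of the 71 fell and 1 rose, against 1.8% and 1.14% of all genes, all of them targets. In the ad libitum dogs 5 fell, MMP9 among them, and 2 rose, against 4.75% and 2.71%. The median difference of the 24 tested targets was -0.93 in the controls and -0.80 in the ad libitum dogs, against 0.0154 and -0.0158 over all genes. Receptors stood at -0.47 and -0.42, and adaptors at -0.03 and -0.17. The lists were chosen with earlier results of these data known, so these medians are a description. The target medians include MMP9 and SELE, which reached the floor in 7 and 5 arrays, all subcutaneous. TNFAIP2 reached it in 6 and CXCL10 in 4, mostly subcutaneous. The filter kept such genes through the depot where they were high, so their part in the medians is no support for a depot difference. With the dog as a random block 7 and 11 of the 71 passed. The whole table rose as well, from 627 and 1545 to 1346 and 2495 of 21484 probe sets.

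BCL2A1, a survival gene of the BCL2 family abundant in leukocytes, was at 10.31, 10.32, 9.38 and 9.27 in subcutaneous fat of control dogs 1, 3, 4 and 9. In their gonadal fat it was at 5.51, 4.89, 6.12 and 6.41. The depots did not overlap, and the mean fell by 4.09 ± 0.54 log2 units (adjusted p = 0.00103 by limma). In the ad libitum dogs it fell by 4.06 ± 0.48 (adjusted p = 0.000146), from 8.99 to 12.22 in subcutaneous fat to 5.68 to 6.47 in gonadal fat. Dog 5 was the highest of these dogs in subcutaneous fat and the lowest in gonadal fat. ICAM1, the leukocyte adhesion molecule, was at 8.53 to 9.15 in subcutaneous and 5.94 to 7.21 in gonadal fat of the controls, and fell by 2.46 ± 0.43 (adjusted p = 0.00572). It fell by 2.28 ± 0.38 in the ad libitum dogs (adjusted p = 0.00247). BCL2A1 passed in all 22 alternative fits of both depot comparisons, and ICAM1 in 22 of 22 in the ad libitum dogs. In the controls ICAM1 passed in 19 of 22, and missed the threshold without dog 1 (adjusted p = 0.0652), without dog 3 (adjusted p = 0.0569) and with the actin signal.

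CD83, a marker of activated dendritic and B cells, fell by 2.21 ± 0.39 in the controls (adjusted p = 0.00673), and differed by -1.0 ± 0.35 in the ad libitum dogs (adjusted p = 0.0907). TNFAIP8 rose by 1.52 ± 0.31 in the controls (adjusted p = 0.0145) and differed by 0.57 ± 0.27 in the ad libitum dogs (adjusted p = 0.218). Without dog 1 or dog 3 TNFAIP8 did not pass in the controls (adjusted p = 0.0760 and 0.0840). With the actin signal as a covariate BCL2A1 alone passed in the controls, with ICAM1 at -1.87 (adjusted p = 0.0873), CD83 at -1.64 (adjusted p = 0.0962) and TNFAIP8 at 1.39 (adjusted p = 0.103). The whole table fell as well with that covariate, from 627 to 199 of 21484 probe sets. The actin signal averaged 2.91 ± 0.91 (SD, n = 4) in gonadal fat of the controls, below the 4.75 of their subcutaneous fat.

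In the ad libitum dogs MMP9, a gelatinase of neutrophils and macrophages, was at 5.63, 11.12, 3.38, 5.57 and 7.65 in subcutaneous fat of dogs 2, 5, 6, 7 and 8 and below the floor in gonadal fat of all 5. That is at least 6.37-fold lower in gonadal fat, with the gonadal mean set to the floor (adjusted p = 0.0245). MMP9 reached the floor in 7 arrays, all subcutaneous, so the filter kept it only through that depot. Its adjusted p is therefore no separate support for the difference. Dog 5 was by far the highest, and without its subcutaneous array MMP9 was at least 2.94-fold lower (adjusted p = 0.0239). LTBR, the lymphotoxin beta receptor, fell by 0.58 ± 0.14 (adjusted p = 0.0218) and LY96 by 1.16 ± 0.33 (adjusted p = 0.0457). BCL2L1 rose by 0.63 ± 0.17 (adjusted p = 0.0398) and ZFAND5 by 0.71 ± 0.16 (adjusted p = 0.0153). Without the 4 arrays of high muscle or ciliated-cell score 4 of these 7 passed, and MMP9 (adjusted p = 0.0630), ZFAND5 (adjusted p = 0.0616) and BCL2L1 (adjusted p = 0.136) did not. MMP9 also missed the threshold without dog 5, 7 or 8 (adjusted p = 0.0533, 0.0638 and 0.111), and LTBR without dog 2, 5, 6 or 8 (adjusted p from 0.0548 to 0.0824). ZFAND5 missed it without dog 5, 7 or 8 (adjusted p from 0.0504 to 0.0725). LY96 and BCL2L1 each passed in 11 of 22 alternative fits.

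Markers of other cells moved with the depots to different degrees. The macrophage score, from 10 markers of which 9 were tested, ran from -0.28 to 0.83 and from -0.10 to 1.90 in the subcutaneous control and ad libitum arrays. It ran from -1.08 to 0.38 and from -0.96 to -0.07 in the gonadal ones. Of the T cell markers 2 of 9 on the array were tested, and 8 and 7 of the 9 lay below the floor in all gonadal control and all gonadal ad libitum arrays, against 4 in each subcutaneous group. The neutrophil score, from 4 markers on the array of which 2 were tested, overlapped between depots. It ran from -0.98 to 0.72 and from -0.93 to 1.06 in the subcutaneous control and ad libitum arrays, and from -0.62 to 0.37 and from -0.27 to 0.63 in the gonadal ones.

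The mesothelium score, from 6 markers on the array, differed far more. It ran from -2.44 to -2.09 in the subcutaneous controls apart from dog 4, at 1.31, and from -2.57 to -2.0 in the subcutaneous ad libitum arrays. In gonadal fat it ran from 0.45 to 2.07 and from 0.39 to 2.99. Of the 6 markers 1 passed as higher in the controls and 5 in the ad libitum dogs, against 1.14% and 2.71% of all genes. UPK1B, UPK3B and WT1 lay below the floor in every subcutaneous ad libitum array, so the filter kept them through other groups. Their part in these counts is no support for a depot difference. CALB2 alone averaged lower in gonadal fat, 2.91 against 4.06 in the controls and 3.50 against 5.83 in the ad libitum dogs. The fibroblast score went the opposite way to the mesothelium score, from 0.63 to 1.36 in subcutaneous to -0.66 to 0.21 in gonadal fat of the controls and from -0.24 to 0.95 to -1.09 to -0.09 in the ad libitum dogs. Of its 7 markers 2 passed as lower in gonadal fat in each feeding group, against 1.8% and 4.75% of all genes. The part of these cell types in the target gene differences was not tested.

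**Figure D5:**
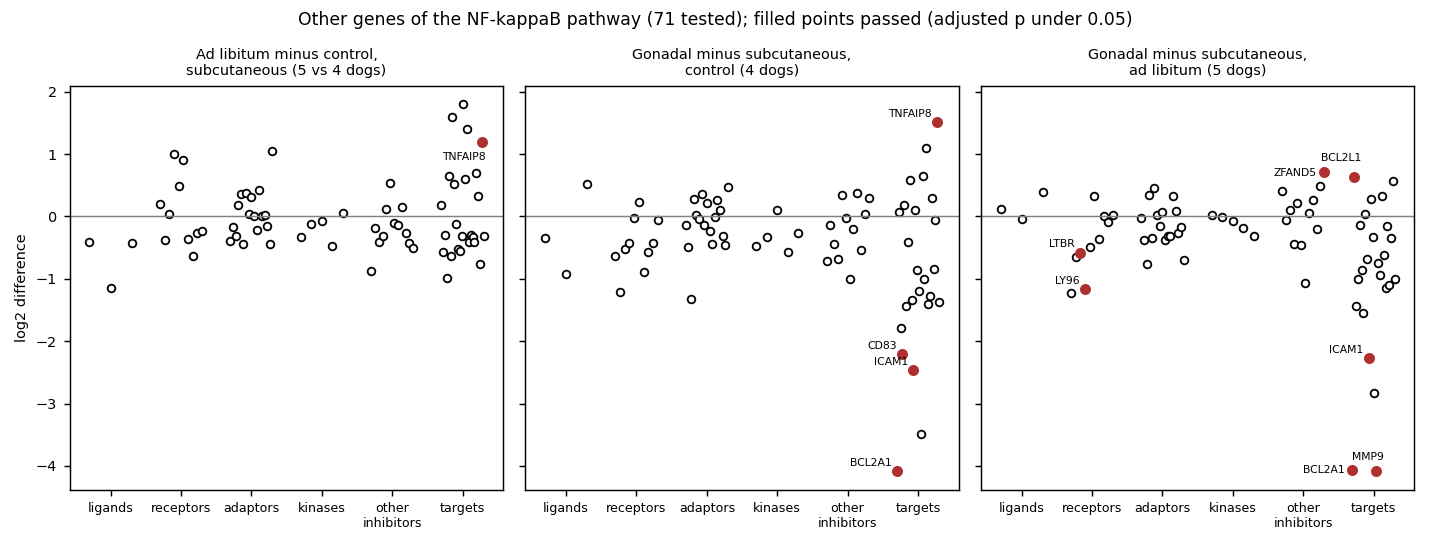
Log2 differences (vertical axis) of the 71 other pathway genes tested, ordered by role, for feeding in subcutaneous fat (5 against 4 dogs) and for depot in each feeding group (4 control and 5 ad libitum dogs). Each point is 1 gene and filled, named points passed at an adjusted p under 0.05: the named targets BCL2A1, ICAM1, CD83 and MMP9 lie below 0, and MMP9 is drawn at its fitted value although its gonadal mean is below the floor.

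Of the other pathway genes, the 2 with the smallest p in each role are given for each depot comparison where they did not pass. In the controls these include LTBR (-0.52 ± 0.16, adjusted p = 0.0832), the endotoxin receptor TLR4 (-0.89 ± 0.30, adjusted p = 0.107) and BIRC2, or cIAP1 (-0.49 ± 0.17, adjusted p = 0.121). BIRC3, or cIAP2, differed by -1.33 ± 0.49 (adjusted p = 0.139), and NFKBID, a nuclear IkappaB protein, by -0.68 ± 0.24 (adjusted p = 0.124). PDLIM2, a ligase that targets nuclear RELA, differed by -1.0 ± 0.37 in the controls (adjusted p = 0.144) and by -1.06 ± 0.33 in the ad libitum dogs (adjusted p = 0.0636). MAP3K8 differed by -0.56 ± 0.23 (adjusted p = 0.183), IKBKB by -0.47 ± 0.26 (adjusted p = 0.321), LTB by 0.53 ± 0.23 (adjusted p = 0.204) and IL33 by -0.93 ± 0.66 (adjusted p = 0.463) in the controls. In the ad libitum dogs BIRC2 differed by -0.38 ± 0.15 (adjusted p = 0.138), TRAF5 by -0.70 ± 0.32 (adjusted p = 0.194), LTB by 0.40 ± 0.20 (adjusted p = 0.248) and IL18 by 0.12 ± 0.51 (adjusted p = 0.920). TBK1 differed by -0.32 ± 0.25 (adjusted p = 0.483) and MAP3K8 by -0.19 ± 0.21 (adjusted p = 0.616). Some genes outside that rule, named after their values were seen, had smaller p than several of these. In the controls they were CSF1 (-1.43 ± 0.43, adjusted p = 0.0780), VCAM1 (-1.37 ± 0.42, adjusted p = 0.0832), CD40 (-1.22 ± 0.41, adjusted p = 0.113) and GADD45B (-1.34 ± 0.47, adjusted p = 0.127). MMP9, below the floor in gonadal fat of all 4 controls, had an adjusted p = 0.102 there. CD14, the endotoxin co-receptor, differed by -1.23 ± 0.40 in the ad libitum dogs (adjusted p = 0.0697), and LCN2 by -2.82 ± 0.91 (adjusted p = 0.0714). This pick is not complete, and every gene in it averaged lower in gonadal fat. USP21, outside it, averaged 5.17 in gonadal and 4.68 in subcutaneous fat of the ad libitum dogs. Of the 71 genes 22 averaged higher and 49 lower in gonadal fat of the controls, and 24 and 47 in the ad libitum dogs. For the difference of feeding responses between depots 0 of the 71 passed.

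As a description of how 2 members varied from dog to dog, each tested gene was compared with NFKB1 and with NFKBIA over the 18 arrays after its group means were subtracted. The arrays come from 9 dogs and share whatever RNA quality each array has, so no p is given. Most like NFKB1 of 8649 genes were NUP205 (Pearson's r = 0.91, Spearman's rho = 0.82), TMEM248 (0.88 and 0.76), PPP4R1 (0.87 and 0.80), PRPF3 (0.87 and 0.72) and ZNFX1 (0.87 and 0.81). Most like NFKBIA were SPPL2B (0.80 and 0.70), ICAM1 (0.74 and 0.68), ZNF792 (0.74 and 0.63), BCL6 (0.73 and 0.75) and CHSY3 (0.67 and 0.80). ICAM1 was the 1 gene of these 10 that is also on the pathway lists.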

How the data were processed

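Canine arrays of subcutaneous and gonadal fat of 9 dogs were analysed. The authors deposited log2 expression values, 1 column per array, made with GCRMA per the submitters' processing notes. Not given in the sources used here are the GCRMA version, the log base and any scan date. The base was read from the values, which span 0.68 to 16.51 (array medians 3.65 to 3.87). Neither scanner files nor sequences were used.

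Of 43035 probe sets 111 controls were set aside. The 21484 with log2 of at least 4 in at least 4 arrays were fitted as 4 group means over 18 arrays with limma 3.58.1 and statmod 1.5.0 in R 4.3.3 (14 residual and 2.54 prior degrees of freedom). P-values are two-sided, Benjamini-Hochberg adjusted over probe sets, threshold 0.05. The 5 comparisons are feeding in each depot, depot in each feeding group, and their interaction. The fit was tested on simulated data. Background shares count 1 probe set per gene, that of highest mean (8650 genes).

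Named are all 10 members, pathway genes that passed, the 2 of each list with the smallest p for feeding and for depot, and the 5 most like NFKB1 and NFKBIA. Members and lists were chosen with earlier results of these data known. Arrays of 1 dog are paired by the animal number in the labels, and the depots of a dog deviated together with r from -0.05 to 0.53. Alternatives were other filters, normalizations, moderation, blocks, arrays left out, the actin signal and the mean of probe sets.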

Additional observations from a re-analysis of the deposited data

Results flagged for a closer look

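The RELA value of 6.50 in subcutaneous fat of ad libitum dog 6 stood apart from the other 4 dogs of its group, the nearest of which was at 5.66. The gap was 0.744 of the range of the group, above the critical value of 0.71 for 5 samples. It was 1 of 32 groups of values examined, and chance flags about 1 in 20 groups. In gonadal fat the same dog had 6.56, beside 6.54 in dog 7.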

How the results depend on the processing

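For feeding in subcutaneous fat, where 2 members passed, 0 passed with no filter, in a fit to only the arrays of the comparison, without the 4 arrays of high muscle or ciliated-cell score, or with the actin signal as a covariate. In that comparison 1 passed with each array centred on its median and 1 with the mean of the probe sets of a member. Leaving out 1 dog at a time gave 0 to 2 members. An alternative added after seeing the data, without the 2 subcutaneous arrays with muscle transcripts, gave 0, and another, without the subcutaneous array of dog 5, kept 2. The fits without arrays or dogs hold fewer samples, and otherwise the cause was not tested. With the replicate block of the dog as a random effect (consensus correlation 0.168) 1 member, REL, passed between depots in the ad libitum dogs. The block changed no other call of a member, and all other member counts stayed at 0 in every fit run. Of 846 values of the 40 member results under alternatives 27 lost the threshold and 1 gained it. Only the calls of NFKB1 and NFKBIB for feeding in subcutaneous fat could lose it. They passed in 7 and 8 of 21 alternative fits. None of the 846 values reversed, although 17 that missed the threshold changed sign within 1 SE of 0. Over the whole table the probe sets that passed numbered 1 to 2956 for feeding in subcutaneous fat (506 as reported), 143 to 1346 for depot in controls (627) and 497 to 2495 in ad libitum dogs (1545). Pathway counts for depot, also added after seeing the data, were 1 in controls with the actin signal and, without 1 dog, as low as 2 in either group. The whole table fell as well, to 199 of 21484 probe sets in controls with that signal. Without 1 dog it fell to as few as 143 in controls and 497 in ad libitum dogs.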
